A study of Mus musculus with 768 samples.

Results

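The cytosolic ribosomal protein genes were examined in single thymocytes of mice that lack, or are labelled as lacking, the transcription factor TCF1. Members were all gene symbols of the count table that follow the naming of large-subunit (Rpl) and small-subunit (Rps) proteins, together with the stalk genes Rplp0, Rplp1 and Rplp2 and the small-subunit gene Rpsa. This gave 85 members of 23127 genes, 52 of the large and 33 of the small subunit. The rule uses no measured value, but the gene family was taken up with earlier results of these data known. Of the 85, 82 reached 50 CPM, counts of a gene per 1000000 counts of the library, in at least 1 library and 80 did so in every library. The 3 below this level everywhere were Rpl39l, Rpl3l and Rpl10l.

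C57BL/6 mice of 6 to 8 weeks gave thymus cells, sorted singly, 96 to a plate, on 8 plates. Germline Tcf7-/- mice, Tcf7fl/fl mice with Vav-cre (active in blood cells) and WT mice each gave 1 plate of CD4- CD8- thymocytes that were CD25+ (DN2-3) and 1 that were CD25- CD44+ (DN1). Tcf7fl/fl mice with Lck-cre, a recombinase of T-cell precursors, gave 2 DN2-3 plates. Cells with fewer than 1000 detected genes were left out, which kept 675 of 768, between 58 and 96 per plate. The summed library totals lay between 1547512 counts (Vav-cre DN1) and 8371808 counts (Tcf7-/- DN2-3).

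The labels name no animals, and most groups are 1 plate. Cells of a plate are not replicates, so no genotype was tested against WT. Counts of Tcf7, the targeted gene, stood at 122 CPM in Tcf7-/- DN2-3, 964 in Vav-cre DN2-3, 762 and 658 on the Lck-cre plates and 862 in WT DN2-3. In the DN1 gate they stood at 98.6 CPM in Tcf7-/-, 368 in Vav-cre and 134 in WT. Tcf7 RNA was therefore not lower in the Vav-cre libraries than in WT. In DN1 a Tcf7 count was present in 84.4% of Tcf7-/- cells, 60.3% of Vav-cre cells and 57% of WT cells, so the DN1 counts did not set Tcf7-/- clearly apart either. Counts per gene do not show whether a deleted exon was read, and the genotype names below are those of the labels only. The 5 DN2-3 libraries held 4640 to 7722 CPM of the 10 DN3 markers, against 902 to 2025 CPM in the 3 DN1 libraries. The 12 NK-cell markers summed to 248 to 500 CPM in DN2-3, where 4 to 11 of the 12 were at 0, and to 1982 to 5584 CPM in DN1. The part of these cell types in the differences between gates below was not tested, and fewer cells of a type and less RNA per cell cannot be told apart in summed counts. The Tcf7-/- plates also carry other labels and another list of genome builds than the rest, so for them genotype and batch cannot be told apart.

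Ribosomal proteins are made in near equal numbers for each ribosome, and their genes are among the most highly transcribed of a growing cell. Their mRNAs share a terminal oligopyrimidine (TOP) tract, a run of C and T at the start of the transcript through which their translation follows growth signals. Several have a near copy elsewhere in the genome whose protein can take the same place in the ribosome, such as Rps27l for Rps27 and Rpl22l1 for Rpl22. In mouse thymocytes, loss of Rpl22 is known to block development of alpha-beta T cells, and in mouse Rpl22 represses Rpl22l1.

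The coding sequences of the pair on which the main difference rests show how far these copies differ from each other. Below are the coding sequences of Rps27 (chromosome 3) and Rps27l (chromosome 9) from the GENCODE transcripts of mm10, with the bases that differ between them in capitals. Of 255 aligned bases 194 are identical (76.1%), 61 differ, and the longest identical stretch is 11 bases. Both genes also share sequence with further genes. Of their 50-base stretches, 46.2% for Rps27 and 16.2% for Rps27l occur in GENCODE transcripts of other genes, in 9 and 4 of them. The part of such reads in the counts of the pair was not tested.
Rps27: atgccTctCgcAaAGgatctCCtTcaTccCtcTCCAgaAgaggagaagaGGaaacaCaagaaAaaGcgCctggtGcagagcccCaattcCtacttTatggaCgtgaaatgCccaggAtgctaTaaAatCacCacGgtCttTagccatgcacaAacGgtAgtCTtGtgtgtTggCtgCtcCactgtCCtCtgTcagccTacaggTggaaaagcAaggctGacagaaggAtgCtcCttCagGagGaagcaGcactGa
Rps27l: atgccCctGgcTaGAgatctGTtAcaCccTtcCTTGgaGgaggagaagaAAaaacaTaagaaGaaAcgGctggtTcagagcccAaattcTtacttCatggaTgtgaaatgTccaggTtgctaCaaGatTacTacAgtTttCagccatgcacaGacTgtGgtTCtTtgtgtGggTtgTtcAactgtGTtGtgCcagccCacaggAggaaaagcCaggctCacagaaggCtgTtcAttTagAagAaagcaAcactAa

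Start sites were read from RefSeq windows (GRCm38.p6) from 250 bases before to 50 bases after each gene's start, which held 64 of the 85 members. A run of at least 8 C or T within 25 bases of the start was present in 38 of the 64 (59.4%), against 27.3% of all 27025 genes with such a window. The letters CCGGAAG, on either strand anywhere in the window, were present in 26 members (40.6%), against 9.9% of all genes. A match describes the letters only. Not all members described below held such a run: the longest was 6 bases in Rps2 and 7 in Rplp0. In Rps27l a run of 9 bases started 22 bases before the gene's start. The windows of 3 members described below that held such a run are printed with the run in capitals: Rps27 (chr3:90213629-90213658, minus strand), Rpl22l1 (chr3:28805501-28805530, plus strand) and Rpl13a (chr7:45128722-45128751, minus strand).
Rps27: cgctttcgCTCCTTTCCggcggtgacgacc
Rpl22l1: caagcccgTTCTCTTCCCacggctgcagct
Rpl13a: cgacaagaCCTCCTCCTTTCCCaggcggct

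The share of all counts that came from the members ranged from 15.4% to 22.98% over the 8 libraries. It was 22.98% in Tcf7-/- DN2-3, 22.79% in Vav-cre DN2-3, 22.54% and 21.96% on the Lck-cre plates and 19.4% in WT DN2-3. In the DN1 gate it was 19.6% in Tcf7-/-, 15.4% in Vav-cre and 22.1% in WT. The 4 mutant DN2-3 libraries were all above WT DN2-3, and both mutant DN1 libraries were below WT DN1. On the log2 scale the share in DN2-3 stood 0.24 above WT in Tcf7-/-, 0.23 in Vav-cre and 0.20 in Lck-cre (0.22 and 0.18 by plate), while the 2 Lck-cre plates lay 0.04 apart. In DN1 it stood 0.17 below WT in Tcf7-/- (log2 ratio -0.17) and 0.53 below in Vav-cre (log2 ratio -0.53). These are values of single libraries without a test.

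The Vav-cre DN1 library, lowest in share, was also the shallowest, with a median of 19293 counts per kept cell against 66572 in WT DN1. Its summed markers of innate lymphoid cells were 6954 CPM, against 4371 CPM in WT DN1. Its myeloid and dendritic markers were 4293 CPM, against 2159 CPM in WT DN1, and its NK markers 1982 CPM, against 5584 CPM. The part of depth and of these cells was not tested. Among cells with at least 2000 detected genes, 24 in Vav-cre DN1 and 77 in WT DN1, the share was 16.03% in Vav-cre DN1 and 22.23% in WT DN1. Within the DN1 gate, cells with at least 3 NK markers were 55 of 96 in Tcf7-/-, 13 of 58 in Vav-cre and 82 of 86 in WT. Cells with at least 3 DN3 markers numbered 84, 6 and 11, so the DN1 libraries differed in make-up. In the cells with NK markers the share was 19.9% in Tcf7-/-, 17.4% in Vav-cre and 22.3% in WT. The order of the libraries was the same in that class, with few Vav-cre cells, and the part of make-up was not tested.

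**Figure D1:**
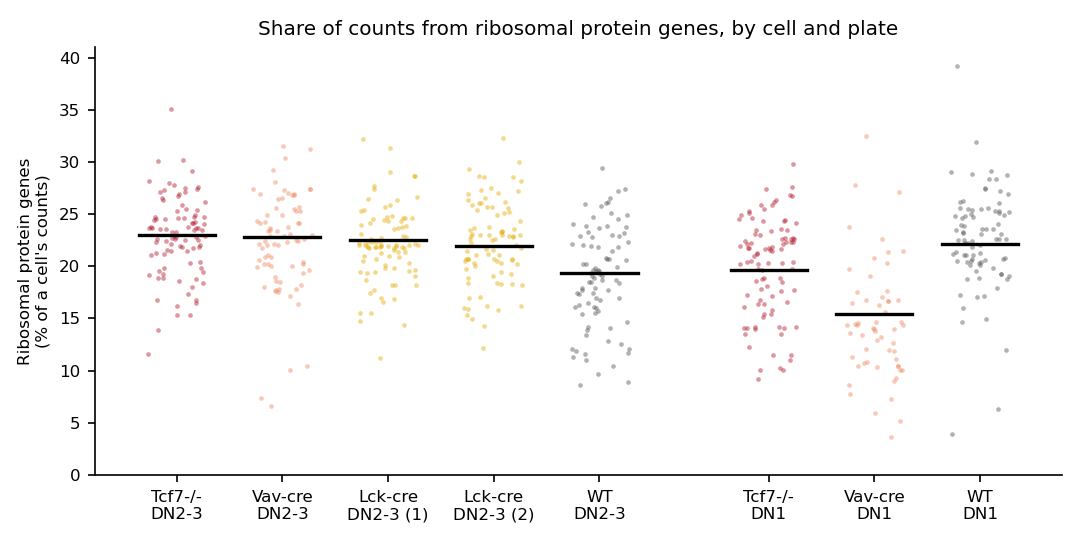
Percentage of a cell's counts that came from the 85 ribosomal protein genes, each point a kept cell and each black line the share of the plate's summed counts. The line is at 19.4% in WT DN2-3 and between 21.96% and 22.98% on the other DN2-3 plates, and at 15.4% in Vav-cre DN1 against 22.1% in WT DN1.

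Single cells of one plate ranged widely. The standard deviation of the share over the cells of a plate lay between 3.55 and 5.51 percentage points. In WT DN1 single cells held 3.97% to 39.2%, with a median of 22.6%. Small-subunit counts were 0.774 to 0.7985 of large-subunit counts in the 6 mutant libraries, against 0.8133 in WT DN2-3 and 0.822 in WT DN1. Both WT libraries lay above every mutant one, while the 2 Lck-cre plates stood at 0.794 and 0.781. These values have no test.

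Between the gates the shares overlapped. The share averaged 21.85% ± 1.67 in the 4 DN2-3 groups and 19.05% ± 3.42 in the 3 DN1 groups (SD), a difference of 2.81 points (two-sided exact permutation test over 7 groups, p = 0.229). The smallest p that 4 groups against 3 allow is 0.0571, so the test could not reach the threshold of 0.05. Without Vav-cre DN1 the difference was 0.973 points, and without WT DN1 it was 4.35 points. Within a genotype DN2-3 was above DN1 by 3.36 points in Tcf7-/- and by 7.41 points in Vav-cre, and was below it in WT, by -2.75 points.

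Gene by gene, Rps27l was the 1 member of 83 tested that passed the threshold in DN2-3 against DN1, and it was higher. The test was edgeR's quasi-likelihood test on the summed counts of the 8 plates with a term for genotype, adjusted over all 11418 genes tested. With that term the fold change rests on the genotypes that have both gates. The Lck-cre plates have no DN1 partner and enter for the spread only. Leaving out either plate of a genotype with both gates removes that genotype from the fold change. Across all genes tested, 7.18% were called (355 higher, 465 lower), so the 1.2% of members called lay below the background in this fit. Rps27l encodes a small-subunit protein nearly identical in role to Rps27 and is a known target of p53.

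Rps27l (chr9:66946086-66949516, plus strand, mm10) stood at 1250 CPM in Tcf7-/- DN2-3, 1019 in Vav-cre DN2-3, 1178 and 1136 on the Lck-cre plates and 1254 in WT DN2-3. In DN1 it stood at 589 CPM in Tcf7-/-, 777 in Vav-cre and 572 in WT. Every DN2-3 library was above every DN1 library. The log2 fold change was 0.89 (SE 0.23, edgeR adjusted p = 0.0468). The call was lost without Tcf7-/- DN2-3 (log2 0.72, edgeR adjusted p = 0.237), without Tcf7-/- DN1 (0.77, p = 0.21) and without either Lck-cre plate (0.90 each, p = 0.149 and 0.152). It held without any one of the other 4 plates.

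None of the 18 members known in humans as genes of the inherited Diamond-Blackfan anaemia passed the threshold. In all, 71 of the 83 members had a positive log2 fold change, with a median of 0.29 beside 0.01 over all genes. At an unadjusted p under 0.05, 11 members were higher and 0 lower, 13.3% beside 21.7% of all genes. Single plates decided these values. Without Vav-cre DN2-3 the median of the members was 0.01 and 43 of 84 were above 0, and without Vav-cre DN1 it was 0.01 with 43 of 83 above 0. Without WT DN2-3 the median was 0.56 and 18 members passed the threshold, 21.4% beside 7.04% of all genes. Without WT DN1 it was 0.56 and 20 members passed, 23.8% beside 7.08% of all genes, and in both fits all of these members were higher in DN2-3.

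Of 27 listed genes that build ribosomes, 7 were higher and 0 lower in DN2-3 in the same fit (edgeR, adjusted p under the same threshold). Of all 11418 genes tested in that fit, 7.18% were called, 355 higher and 465 lower. The 7 listed genes were Dkc1 and the box C/D factors Nop56 and Nop58, which modify ribosomal RNA, the nucleolar proteins Ncl and Npm1, Tcof1, and Wdr12, which matures the large subunit. Dkc1 stood at 345 CPM in Tcf7-/- DN2-3, 240 in Vav-cre DN2-3, 297 and 353 on the Lck-cre plates and 269 in WT DN2-3. In DN1 it stood at 133, 78.2 and 69.6 CPM in Tcf7-/-, Vav-cre and WT, a log2 fold change of 1.67 (SE 0.26, edgeR adjusted p = 0.00556). The median log2 fold change of the list was 0.81. Of 20 tested genes with TOP mRNAs that encode no ribosomal protein, 2 were higher (Hnrnpa1, Npm1) and 2 lower (Vim, Eif4a2), with a median of 0.35. Npm1 is on both lists. Of 17 tested p53 targets 0 passed, with a median of -0.43. Those with the largest log2 fold changes in size went both ways. Plk3 was lower (-6.47, SE 1.98), and Gtse1 (3.83, SE 1.84), Phlda3 (3.81, SE 2.24) and Cdkn1a (2.73, SE 1.27) were higher. These fold changes rest on values near 0. Plk3 stood at 0 to 1.37 CPM in DN2-3 and 13.1 to 20.2 CPM in DN1. Gtse1 reached at most 13.9 CPM and Phlda3 at most 6.69 CPM in a library. Cdkn1a stood at 52.6 to 87.2 CPM in DN2-3 and 0 to 45.2 CPM in DN1. The difference between these lists was not tested, and their counts were not taken again with a plate left out.

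Rps27 lay lower in every DN2-3 library than in every DN1 library, but it did not pass the test. It stood at 4509 CPM in Tcf7-/- DN2-3, 4835 in Vav-cre DN2-3, 4371 and 4184 on the Lck-cre plates and 4381 in WT DN2-3, against 5610, 5332 and 6992 CPM in Tcf7-/-, Vav-cre and WT DN1. The log2 fold change was -0.35 (SE 0.24, edgeR adjusted p = 0.443). As a share of the counts of both genes, uncorrected for length, Rps27l held 21.7% in Tcf7-/- DN2-3, 17.4% in Vav-cre DN2-3, 21.2% and 21.4% on the Lck-cre plates and 22.3% in WT DN2-3. In DN1 it held 9.50% in Tcf7-/-, 12.7% in Vav-cre and 7.56% in WT. The mean was 20.7% ± 2.21 in the 4 DN2-3 groups and 9.93% ± 2.61 in the 3 DN1 groups (SD). This share was computed after the values of Rps27l had been seen and has no test.

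The pair also varied from cell to cell. Among cells with at least 50 counts of the pair, the median Rps27l share lay between 14.9% and 20.1% on the DN2-3 plates and between 5.39% and 6.95% on the DN1 plates. Single DN2-3 cells ranged from 0 to 62.8%. In Tcf7-/- DN1 the share was 9.48% in cells with NK markers and 9.54% in the others, and in Vav-cre DN1 11.92% and 12.97%. WT DN1 cells with NK markers held 7.31%, against 7.56% in all kept cells of that plate. The other 4 WT DN1 cells were below the minimum of 5 for a class, so WT does not allow this comparison.

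**Figure D2:**
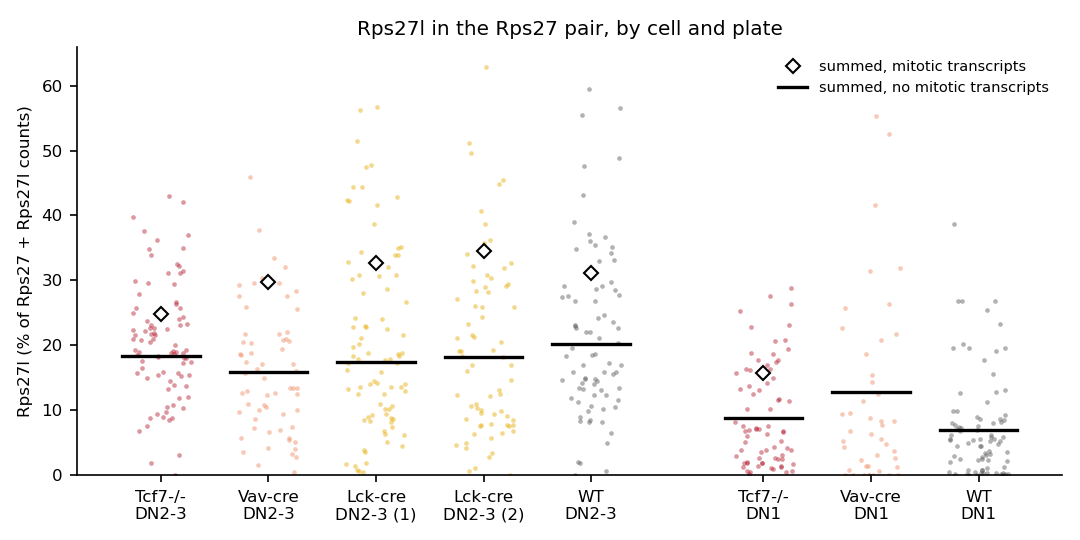
Rps27l as a percentage of Rps27 plus Rps27l counts, each point a kept cell with at least 50 counts of the pair. Lines give the summed share of cells without mitotic transcripts and diamonds that of cells with them, on the plates with at least 5 such cells. Lines are at 15.9% to 20.3% in DN2-3 and 6.96% to 12.7% in DN1, and each of the 6 diamonds is above its line.

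Cells with mitotic transcripts, at least 6 of 24 genes of the G2 and M phases with at least 2 counts, held a lower ribosomal protein share than the other cells of their plate. The difference averaged -1.57 points ± 1.46 (SD) over the 5 genotype and gate groups with at least 5 such cells, 79 cells in all. It was below 0 in 5 of 5 groups, which gives p = 0.0625 in a two-sided exact paired permutation test, the smallest that 5 groups allow. It was -1.14 points in Tcf7-/- DN2-3, -4.16 in Vav-cre DN2-3, -0.98 in WT DN2-3 and -0.61 in Tcf7-/- DN1. On the Lck-cre plates it was 0.34 on plate 1 and -2.25 on plate 2, so 1 plate went the other way. Without Vav-cre DN2-3 the mean was -0.921 points. Cells of this class held more counts, with medians of 52223 to 125150 on the 6 plates against 34954 to 53399 in the other cells. With every cell thinned to 10000 counts before the class was formed, the difference was -3.01 points ± 1.04 (SD) over the 4 groups that still had 5 such cells on a plate, 32 cells in all, and below 0 in each. The part of depth was not tested beyond this.

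In mitotic cells Rps27l took a larger part of its pair on all 6 plates. The Rps27l share was 24.8% in mitotic and 18.4% in other cells of Tcf7-/- DN2-3, 29.7% and 15.9% in Vav-cre DN2-3, and 31.1% and 20.3% in WT DN2-3. On the Lck-cre plates it was 32.8% and 17.4% on plate 1 and 34.6% and 18.1% on plate 2. In Tcf7-/- DN1 it was 15.7% in mitotic and 8.73% in other cells. Among cells without mitotic transcripts alone, every DN2-3 plate held a higher share than every DN1 plate. The difference between gates was 8.63 points there, against 10.7 points in all kept cells. The part of cycling cells in it was not tested.

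Of 81 members measured on the 6 plates, 14 were lower in mitotic cells on every plate (17.3%) and 6 were higher on every plate (7.4%). Of 119 other genes with at least 500 CPM on each plate, 15.1% were lower and 31.9% higher on every plate. Members needed only 10 CPM in either class of cells, so the sets differ in their minimum. Rps27 had the lowest mean log2 difference of all members, -0.54, and among the others lower on every plate were Rpl37 at -0.34, Rps24 at -0.33 and Rps14 at -0.32. Among the members higher on every plate were Rps27l (mean log2 0.45), Rpl22l1 (0.33), Rpl36al (0.21) and Rpl4 (0.17). Rps27l, Rpl22l1 and Rpl36al, 3 of the 6, are the lesser copies of pairs. Rpl7l1, the other lesser copy measured on these plates, had a mean of 0.38 but was lower on 1 plate, Vav-cre DN2-3. Whether lesser copies differed from the other members was not tested.

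**Figure D3:**
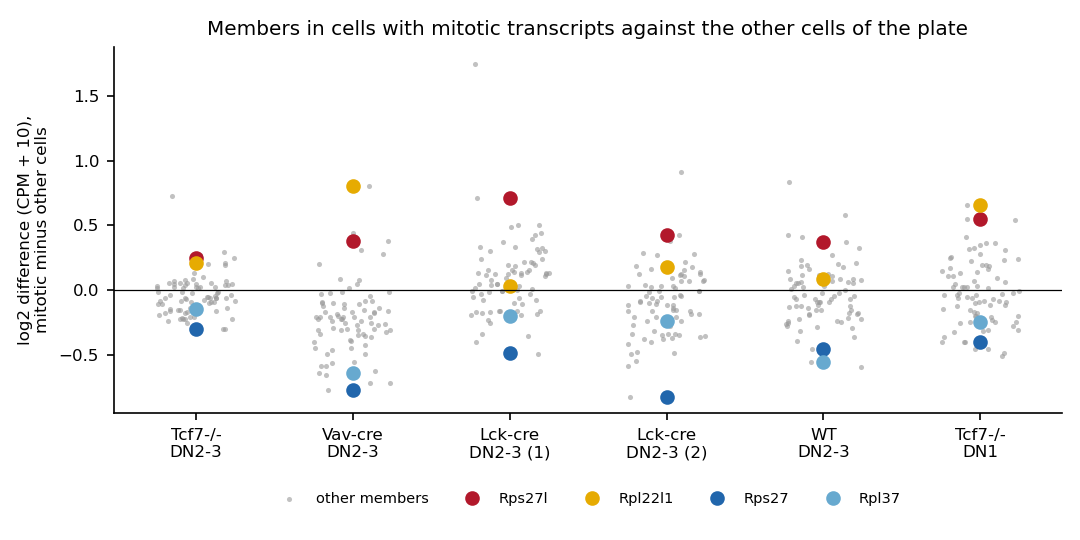
Log2 difference (CPM plus 10) of each measured member between cells with mitotic transcripts and the other cells of the same plate, on the 6 plates with at least 5 mitotic cells. Rps27l and Rpl22l1 are above 0 and Rps27 and Rpl37 below 0 on all 6 plates.

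Against each other, most members kept nearly the same proportions in all libraries. For each library log2(CPM + 10) was centred on the median of the measured members, and the range over the 8 plates was taken. The median range was 0.44, 48 of the 82 measured members were under 0.5, and 8 reached 1. These 8 were Rps4l (3.04), Rpl29 (1.57), Rpl13a (1.37), Rps27l (1.34), Rps2 (1.32), Rplp0 (1.31), Rpl22l1 (1.14) and Rpl27 (1.07). The narrowest was the large-subunit gene Rpl14 at 0.15. Rps27l was low in Tcf7-/- and WT DN1 by this measure, and in Vav-cre DN1 it lay within the range of the DN2-3 plates. The members as a whole were low in that library.

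**Figure D4:**
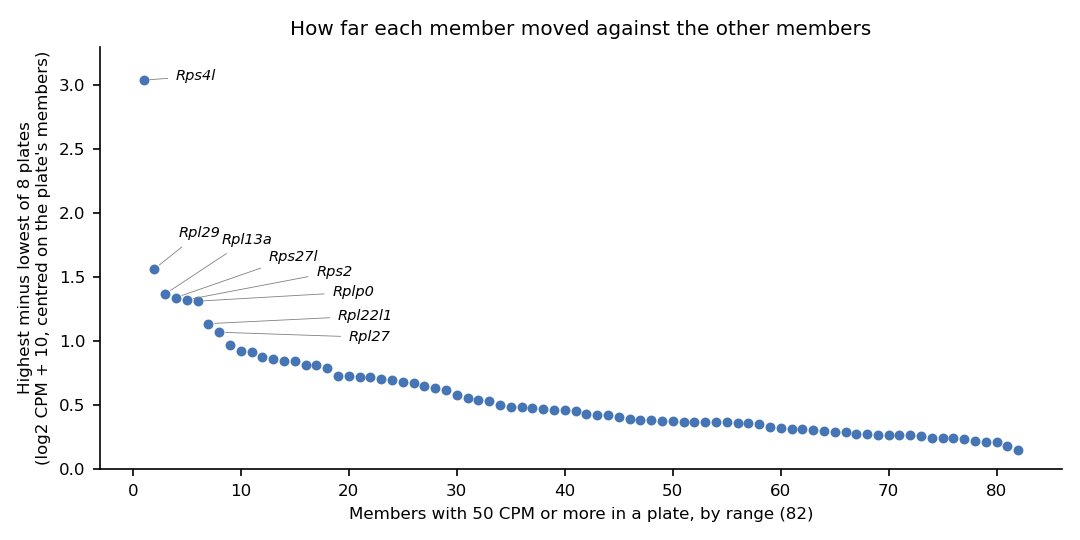
Range over the 8 plates of each member's centred log2(CPM + 10), for the 82 members with at least 50 CPM on a plate, in order of size. Rps4l stands at 3.04, 7 further members lie between 1.07 and 1.57, and 48 lie under 0.5.

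In comparisons of 2 libraries, a member was counted as departing where its log2 ratio lay at least 1 from the median of the members. Few did, and few differed 2-fold. In Tcf7-/- DN1 against WT DN1, 0 members were 2-fold higher and 2 lower, beside 15.8% of all measured genes that differed 2-fold either way and 1.18% of the 170 other genes at 500 CPM or more. In Tcf7-/- DN2-3 against WT DN2-3 no member differed 2-fold, beside 13.6% of all genes and 4.97% of the highly expressed ones. The medians of the members were -0.14 and 0.27, against 0.07 and -0.17 over all genes.

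In both gates of Tcf7-/- the same 2 members stood below the rest, Rpl29, a large-subunit protein not essential in mouse, and Rps2, a small-subunit protein near the decoding site. Rpl29 (chr9:106429454-106431568, plus strand) was at 459 CPM in Tcf7-/- DN2-3, 1231 in Vav-cre DN2-3, 1223 and 1282 on the Lck-cre plates and 873 in WT DN2-3. In DN1 it was at 445 CPM in Tcf7-/-, 790 in Vav-cre and 1228 in WT. The 2 Tcf7-/- plates were below the other 6. Rps2 (chr17:24718116-24721929, plus strand) was at 1324 CPM in Tcf7-/- DN2-3, 2509 in Vav-cre DN2-3, 2757 and 2573 on the Lck-cre plates and 2258 in WT DN2-3. In DN1 it was at 950 CPM in Tcf7-/-, 1500 in Vav-cre and 2186 in WT. Again both Tcf7-/- plates were lowest.

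A fit of the 2 Tcf7-/- plates against the other 6 with a term for the gate, added after these values were seen, called 0 members (edgeR quasi-likelihood, 3 at an unadjusted p under 0.05) and 0.00876% of all genes. Rpl29 had a log2 difference of -1.20 (SE 0.29, edgeR adjusted p = 0.925) and Rps2 of -0.88 (SE 0.24, edgeR adjusted p = 0.9995). Both share sequence with other genes: 35.5% of the 50-base stretches of Rpl29 and 56.4% of those of Rps2 occur in GENCODE transcripts of other genes, in 84 and 71 of them. The median over 84 members was 35.8%. How reads that match several genes were counted is not given in the sources used here, and the part of such reads was not tested.

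**Figure D5:**
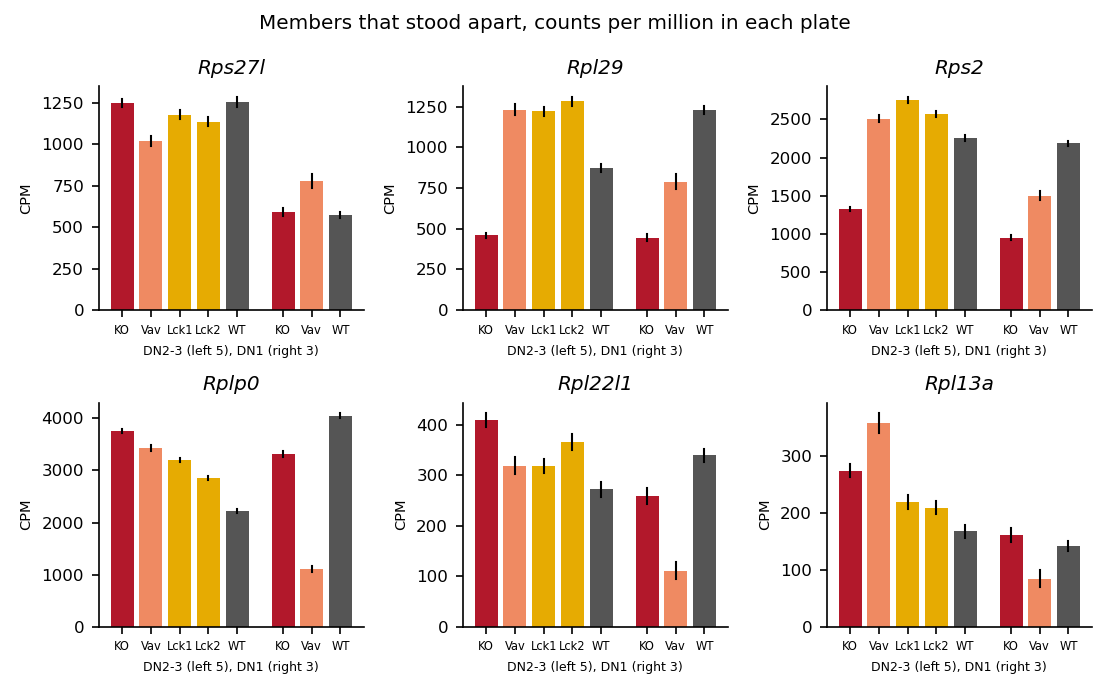
CPM of 6 members on each plate, DN2-3 plates at left and DN1 plates at right, with 95% Poisson intervals for counting error as black lines (KO is Tcf7-/-). Rpl29 and Rps2 are lowest on both Tcf7-/- plates, Rplp0 and Rpl22l1 on the Vav-cre DN1 plate, and Rps27l is lower on all 3 DN1 plates than on any DN2-3 plate.

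The Vav-cre DN1 library departed in other members. Against WT DN1, 1 member was 2-fold higher and 5 lower of 83, beside 27.7% of all genes and 5.23% of highly expressed ones, with a median of -0.49 for the members and 0.13 for all genes. The 5 were Rplp0, Rpl22l1, Rpl27, Rps28 and Rps4x. Rplp0, the base of the stalk that binds elongation factors, was at 3763 CPM in Tcf7-/- DN2-3, 3437 in Vav-cre DN2-3, 3204 and 2857 on the Lck-cre plates and 2217 in WT DN2-3. In DN1 it was at 3317 CPM in Tcf7-/-, 1110 in Vav-cre and 4055 in WT. Vav-cre DN1 was the lowest of the 8.

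Rpl22l1 was likewise at its lowest there. It was at 409 CPM in Tcf7-/- DN2-3, 319 in Vav-cre DN2-3, 318 and 366 on the Lck-cre plates and 272 in WT DN2-3. In DN1 it was at 259 CPM in Tcf7-/-, 110 in Vav-cre and 339 in WT. Rpl22 itself lay between 987 and 1366 CPM over the 8 libraries. The Rpl22l1 share of the pair's counts was 9.56% in Vav-cre DN1 (exact 95% interval 8.23 to 11.02, counting error only) and 18.9% to 23.6% on the other 7 plates. In that library 44.8% of cells held an Rpl22l1 count, at the lowest depth of the series. Of the 50-base stretches, 58.9% for Rpl22l1 and 5.16% for Rpl22 occur in transcripts of other genes. The part of such reads in this share was not tested.

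The member 2-fold higher in Vav-cre DN1 was Rpl39l, a copy of Rpl39 known from testis. It rested on 39 counts in 8.6% of cells, with 53.8% of them in 1 cell, and 0 or 1 count in each other library. Rpl13a, a large-subunit gene, stood at 274 CPM in Tcf7-/- DN2-3, 357 in Vav-cre DN2-3, 219 and 209 on the Lck-cre plates and 167 in WT DN2-3. In DN1 it stood at 161, 84.01 and 141 CPM in Tcf7-/-, Vav-cre and WT, and in Vav-cre DN1 46.9% of its 130 counts came from 1 cell. Rpl27 was between 826 and 1168 CPM in the DN2-3 libraries, against 1673 CPM in Tcf7-/- DN1, 721 in Vav-cre DN1 and 1715 in WT DN1.

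Rps4l, which the annotation holds as a transcribed processed pseudogene of chromosome 6, had the widest range and few counts. It was at 0 to 14.1 CPM in the DN2-3 libraries, against 61.1 CPM in Tcf7-/- DN1, 20.7 in Vav-cre DN1 and 26.4 in WT DN1. In WT DN1 84.04% of its 188 counts came from 1 cell. It departed in 5 of the comparisons, always with few cells behind the value.

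The remaining comparisons gave no further block of departing members. In Vav-cre DN2-3 against WT DN2-3 only Rpl13a differed 2-fold, being higher, beside 16.3% of all genes and 4.35% of highly expressed ones, with a median of 0.21 for the members. In Lck-cre against WT DN2-3 only Rps4l did, being lower, beside 4.42% of all genes and 0 of the 183 highly expressed ones, with a median of 0.19. Between the 2 Lck-cre plates 0 of 81 members differed 2-fold, beside 5.38% of all genes and 0 of 196 highly expressed ones. In WT DN2-3 against WT DN1, Rps27l was 2-fold higher and Rpl27 2-fold lower, beside 28% of all genes and 10.4% of highly expressed ones. In Tcf7-/- DN2-3 against Tcf7-/- DN1, Rps27l was higher and Rps4l lower, beside 25.2% and 15.1%. In Vav-cre DN2-3 against Vav-cre DN1, 10 of 83 members were 2-fold higher and 2 lower, beside 40.7% of all genes and 17 of the 123 highly expressed ones (13.8%). These 10 included Rplp0, Rpl13a, Rpl22l1, Rpl3 and Rps26, and the members had a median of 0.55 there. The comparisons within a gate share their WT library, and those between gates share libraries with them.

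The other pairs of copies were uneven. Rpl36al held between 12.1% of the counts of its pair with Rpl36a in Tcf7-/- DN2-3 (exact 95% interval 11.51 to 12.71, counting error only) and 7.05% in WT DN1 (6.49 to 7.65). Rps4l held 0 to 2.33% with Rps4x, and Rpl7l1 held 3.02% to 4.37% with Rpl7. Rpl3l, a copy used in muscle, had at most 25 counts in a library and Rpl10l at most 1, so neither was measurable at this depth. Read sharing bears on the levels of some members: 28 of 84 had over 50% of their 50-base stretches in transcripts of other genes, up to 95.1% for Rpl35 (413 CPM on average over the libraries). Across the 84 members this percentage and the mean CPM per kilobase of exon had a Spearman correlation of 0.12, a description across genes of the same libraries.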

How the data were processed

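Single-cell libraries were of a modified STRT type with paired reads, per the labels' protocols, which also name Smart-seq2. TopHat2 2.1.1 and HTSeq are the tools named, with mm10 as the genome, per the submitters' processing notes. Of the cells, 192 cells, all Tcf7-/-, list mm10 alone and 576 list mm10 and GRCm38. Molecular identifiers are not stated. The deposited counts, whole numbers for each gene in each cell without normalization by the authors, were used here, and the authors' log2 values were not. The 27 entries with a date for a symbol (0.141% of counts) were dropped, as were cells under 1000 genes. The 96 well barcodes recur on every plate, and 0 cells had identical counts. Doublets were not called, as each well was sorted with 1 cell.

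Counts were summed per plate and scaled to CPM. Ratios used a pseudocount of 10 CPM and members at 10 CPM or more in a library compared. Tests used edgeR 4.0.16 (quasi-likelihood, TMM, Benjamini-Hochberg, threshold 0.05) with R 4.3.3, checked on simulated counts, DESeq2 1.42.0 as an alternative, and exact permutation tests in scipy 1.17.1. Where plates are the unit, p-values measure the spread between plates, genotype-by-gate differences included. Intervals are 95% and cover counting error only. Depth was 19293 to 70003 counts in the median cell of a plate. Named members were those of 8 pairs of copies, the 8 with the widest range, those past a threshold, and those departing by 1 or more; members named in the mitotic comparison were chosen after their values were seen. Some members are counted but not reported here by name. Members and lists were chosen with earlier results of these data known. Positions are those of GENCODE M21 (mm10); start windows are from RefSeq.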

Additional observations from a re-analysis of the deposited data

Results flagged for a closer look

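The ribosomal protein share went in opposite directions between the gates of different genotypes. DN2-3 minus DN1 was 3.36 percentage points in Tcf7-/- and 7.41 in Vav-cre, but -2.75 in WT. The same libraries gave a log2 ratio to WT of 0.24 in DN2-3 and -0.17 in DN1 for Tcf7-/-, and of 0.23 in DN2-3 and -0.53 in DN1 for Vav-cre. Each value rests on 1 plate per genotype and gate, and the difference between genotypes was not tested.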

How the results depend on the processing

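The number of members called in DN2-3 against DN1 depended on the fit: 2 with plain library sizes (6.91% of all genes called), 4 with DESeq2 (17.5%), 3 without a filter on low counts (9.76%), 5 without a genotype term (13.7%) and 0 without the Tcf7-/- plates (3.25%), against 1 in the fit reported (7.18%). The members' share was below that of all genes in each. Leaving out a plate gave 0 to 20. Among the members called in these fits beside Rps27l were Rpl28 and Rpl31 in 2 each, and Rpl13a and Rpl11 in 1 each. Rps27l stayed positive in all 14 alternatives (log2 0.72 to 1.05) and lost its call in 5, one of them without the Tcf7-/- plates (adjusted p = 0.202). The cause was not tested.

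The gate difference in share kept its sign in all 11 alternatives (leaving out a plate: 0.973 to 4.35 points), and the mitotic difference in all 9 (-1.83 to -0.921 points by plate left out, -3.01 in thinned cells). Neither test could reach the threshold with so few groups, so their p-values say nothing of stability. With at least 4 mitotic genes it was -1.22 points, below 0 in 3 of 5 groups. The log2 share ratios kept their signs. With at least 2000 genes per cell they were -0.18 (Tcf7-/- DN1), -0.47 (Vav-cre DN1), 0.23 (Tcf7-/- DN2-3) and 0.23 (Vav-cre DN2-3). As the mean over cells they were -0.63, 0.27 and 0.23 for Vav-cre DN1, Tcf7-/- DN2-3 and Vav-cre DN2-3.

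Departing members numbered 5 in place of 3 in Vav-cre DN1 against WT DN1 without the highest cell of each gene. With a minimum of 50 CPM they numbered 0 in place of 1 in Vav-cre and in Lck-cre DN2-3 against WT DN2-3, and 2 in place of 4 between the Vav-cre gates. The Tcf7-/- fit called 0 members in all 11 alternatives, and the Rps27l share of its pair differed between gates by 9.55 to 12.1 points when a plate was left out and by 8.63 points in cells without mitotic transcripts. The last 2 results and their alternatives were added after seeing the data.

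No paired analysis was possible by replicate number, because the numbers shared between plates are well barcodes, which name no animal; the genotype term and the mitotic comparison within plates do not use them. Vav-cre DN1, with the fewest counts, limits every comparison that uses it.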
